A study of Mus musculus with 8 samples.

Results

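The genes described here are Bdh1, Acat1, Oxct1, Slc16a1, Slc16a6 and Slc16a7, which make, export, take up or use ketone bodies. They were taken by gene name from the non-control features of Agilent whole mouse genome arrays, and every probe was kept separate. The 6 genes had 10 of the 55681 probes, and they are 6 of 34836 gene names on the array. Liver RNA came from 4 male NZO/HiBomDife mice, an obese and diabetes-susceptible inbred strain called NZO below, and from 4 male C57BL/6 mice, called B6. All 8 mice were labelled 6 weeks of age and received a high-fat diet with 45% fat, so the arrays contain no mouse on another diet. Each mouse had 1 array. The study asked whether strain variants in microRNA (miRNA) target sites go along with higher transcript levels in NZO tissue, and Slc16a6 was among the genes it chose. Because the higher NZO level was part of that choice, the direction of Slc16a6 on these same arrays is not independent evidence.

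In the fasted state the liver turns acetyl-CoA from fatty acid oxidation into ketone bodies inside mitochondria. Acat1 joins 2 acetyl-CoA units and also cleaves acetoacetyl-CoA, and Bdh1 interconverts acetoacetate and beta-hydroxybutyrate. The products leave the hepatocyte through monocarboxylate transporters of the SLC16 family. Slc16a6 is a member tied to ketone body release from the liver, Slc16a1 (MCT1) and Slc16a7 (MCT2) carry lactate, pyruvate and ketone bodies, and Oxct1 is the transferase with which other organs, but hardly hepatocytes, use ketone bodies.

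The study's list pairs Slc16a6 with miR-542-3p and miR-592, and their sequences are shown because these pairings were part of the study's choice of the gene. The arrays measured no mature miRNA. For miR-592 the list gives neither an arm nor the mouse miRNA matched to it. Both arms of the mouse miRNA of that name are printed, which assumes that it is the one meant. The mature sequences are from RefSeq on GRCm38.p6, 5′ to 3′, and capitals mark the seed, bases 2 to 8. The miR-542-3p sequence lies at chrX:53049415-53049436, and the miR-592 arms lie at chr6:27936711-27936733 (5p) and chr6:27936672-27936693 (3p), all on the minus strand. The 3 seeds differ from one another.
mmu-miR-542-3p: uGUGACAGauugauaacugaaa
mmu-miR-592-5p: aUUGUGUCaauaugcgaugaugu
mmu-miR-592-3p: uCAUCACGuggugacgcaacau

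Levels are given as log2 of the scanner's processed signal minus the same array's 75th percentile, so 0 is the 75th percentile and a difference of 1 is a doubling. Because probes bind with different strength, a level was tested between mice at one probe and not between probes, and sums over cell markers, given below, are weighted by probe strength. A probe was tested when it was well above background, by the scanner software's own flag, on all 4 arrays of at least 1 strain, which held for 27643 probes and for 9 of the 10 probes of the 6 genes. The 75th percentile itself lay between 118.57 and 158.92 signal units on the 8 arrays, between 50.4% and 60.1% of features were well above background, and no feature was saturated. Differences were tested with limma over all 27643 probes, and a probe was called at a Benjamini-Hochberg adjusted p of at most 0.05. Nothing says that mice of a strain were from separate litters, so the p-values measure the spread between these 8 mice.

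Slc16a6 was higher in NZO liver. At its brighter probe (NM_001029842, mm9 chr11:109314056-109314115, minus strand) the log2 level was 3.46, 2.79, 3.48 and 3.42 in NZO mice 007, 003, 009 and 011. In B6 mice 011, 010, 015 and 009 it was 2.59, 2.01, 2.41 and 2.34. All 4 NZO mice lay above all 4 B6 mice, and NZO mouse 003 was the one nearest to them. NZO livers averaged 3.29 ± 0.33 (SD, n = 4), B6 livers averaged 2.34 ± 0.24 (SD, n = 4), and the log2 difference was 0.95 with a standard error of 0.19. This is a 1.93-fold higher signal (95% confidence interval 1.42 to 2.62, limma adjusted p = 0.0122).

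The second Slc16a6 probe (mm9 chr11:109312371-109312429, minus strand) starts 1685 bases away and gave a difference of nearly the same size with more spread. Its log2 level was −1.11, −2.44, −1.25 and −1.60 in NZO mice 007, 003, 009 and 011 and −2.43, −2.36, −2.42 and −2.91 in B6 mice 011, 010, 015 and 009. NZO mouse 003 fell among the B6 mice, while the other NZO mice lay above them. The log2 difference was 0.93 with a standard error of 0.29 (limma adjusted p = 0.0702), so this probe was not called. It was called with normexp, at a smaller 0.42 (limma adjusted p = 0.035), and with quantile normalization, at 0.99 (limma adjusted p = 0.0399), but not in the deposited table, at 0.38 (limma adjusted p = 0.234). Within each array, the brighter Slc16a6 probe exceeded the dimmer by 4.89 ± 0.30 log2 units (SD, n = 4) for NZO against 4.87 ± 0.37 (SD, n = 4) for B6, a comparison chosen after the values were seen. Its strain difference was 0.02 (exact two-sided permutation p = 1).

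The Slc16a6 result depended on how slides were handled. The 8 arrays were spread over 5 slides, and 1 slide held both strains, with NZO mouse 003 and B6 mice 010 and 015. Within it the brighter probe differed by 0.58 and the dimmer by −0.05. Slide as a fixed term takes the strain difference from this slide alone, so it gives the same values and rests on 1 NZO mouse. The brighter probe was not called in that fit. With slide as a random block the brighter probe differed by 0.89 and stayed called (limma adjusted p = 0.0138). The dimmer then differed by 0.82 and was not called (limma adjusted p = 0.106). Within the 2 scan days the brighter probe differed by 1.02 and 0.99, and the dimmer by 0.63 and 1.56. The second day held 1 NZO mouse, 007, against 2 B6 mice, so its values rest on that mouse. Leaving out NZO mouse 003 raised the difference to 1.11 at the brighter probe and to 1.21 at the dimmer, which was then called (limma adjusted p = 0.0058). In the deposited table of unscaled signals the brighter probe differed by 0.64 (limma adjusted p = 0.0518), where the median over all tested probes moved to −0.15.

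**Figure D1:**
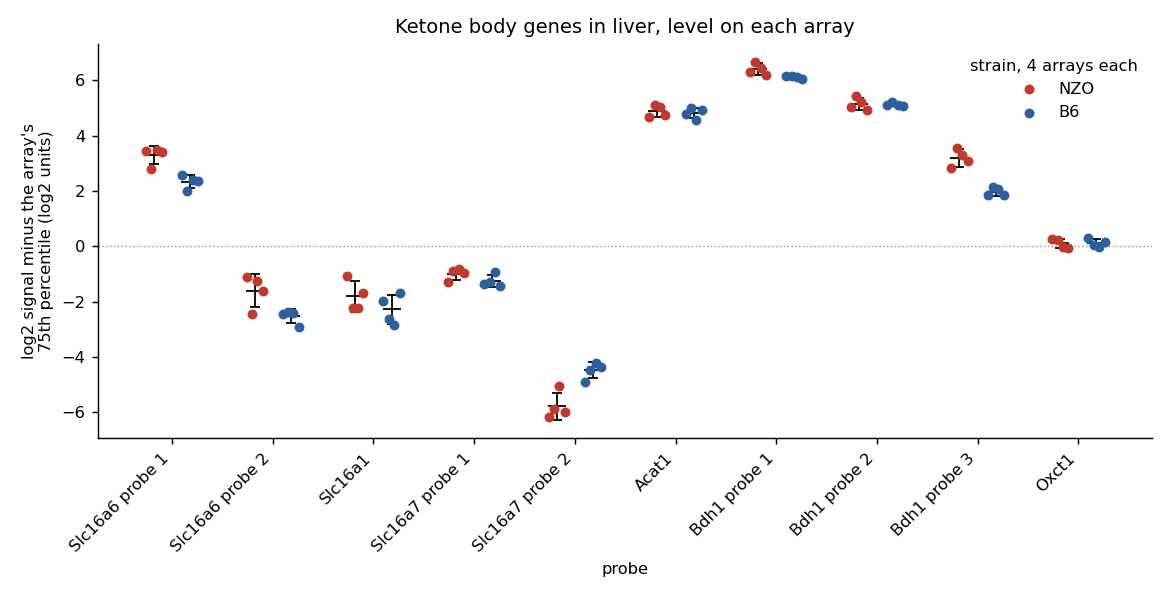
Log2 signal minus the array's 75th percentile (y axis, log2 units) for each probe of the 6 genes (x axis), with 1 point per array, red for NZO and blue for B6. Bars are mean ± SD over 4 arrays. The strains separate at the brighter Slc16a6 probe (2.79 to 3.48 against 2.01 to 2.59) and at the third Bdh1 probe (2.83 to 3.56 against 1.84 to 2.14), and heights are not comparable between probes.

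The ketogenic enzymes Acat1 and Bdh1 were not called at their brightest probes. Of their 4 probes, 1 was called higher in NZO, 0 were called lower and 3 were not called, where 6.83% of all tested probes were called higher and 7.43% lower. The log2 difference was above 0 at all 4, with a median of 0.18, against 0.02 over all 27643 probes, but it fell below 0 for Acat1 and the second Bdh1 probe with normexp or quantile processing and in the deposited table, and rose to 0.31 for Acat1 and 0.26 for the second Bdh1 probe with slide as a fixed term, none of these called. Acat1 (NM_144784, mm9 chr9:53389868-53389927, minus strand) ranged from 4.68 to 5.09 in NZO and from 4.56 to 5.003 in B6. The ranges overlapped almost wholly, and the log2 difference was 0.06 with a 95% confidence interval of −0.27 to 0.39 (limma adjusted p = 0.816). The interval allows a rise of up to 1.31-fold, so the miss does not show equal levels.

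Bdh1 gave different answers at its 3 probes, which lie on the plus strand within 1006 bases of mm9 chromosome 16. At the brightest (NM_175177, mm9 chr16:31457378-31457437) the level was 6.30, 6.66, 6.46 and 6.20 in NZO mice 007, 003, 009 and 011 and 6.16, 6.14, 6.13 and 6.03 in B6 mice 011, 010, 015 and 009. The strains did not overlap, but the gap was narrow, and the log2 difference of 0.29 with a standard error of 0.12 was not called (limma adjusted p = 0.157). It was 0.16 with quantile normalization, 0.045 in the deposited table and 0.53 with slide as a fixed term, and was called in none of these. At the second probe (NM_001122683, mm9 chr16:31457249-31457308) the level was 4.94 to 5.42 in NZO and 5.09 to 5.20 in B6. NZO exceeded B6 there by 0.02 log2 units, with a 95% confidence interval of −0.26 to 0.30.

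The third Bdh1 probe (NM_001122683, mm9 chr16:31458195-31458254) lies furthest along the strand. Its level was 2.83, 3.56, 3.30 and 3.07 in NZO mice 007, 003, 009 and 011 and 1.84, 2.14, 2.06 and 1.86 in B6 mice 011, 010, 015 and 009. All NZO mice were above all B6 mice. The log2 difference was 1.21 with a standard error of 0.17, a 2.32-fold higher signal (95% confidence interval 1.78 to 3.02, limma adjusted p = 0.00179). It was 1.46 within the slide that held both strains and 1.21 and 0.98 within the 2 scan days, the second with 007 as its only NZO mouse.

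The third Bdh1 probe was then set against its neighbours within each array, a comparison chosen after the values were seen. For NZO the third minus the brightest was −3.21 ± 0.17 (SD, n = 4), and for B6 it was −4.14 ± 0.14 (SD, n = 4). The strain difference was 0.92 log2 units, the strains did not overlap, and the exact two-sided permutation p was 0.0286, the smallest that 4 against 4 mice can give. Against the second probe, 946 bases away, the strain difference was 1.20 with the same exact p. Both had a Benjamini-Hochberg adjusted p of 0.0429 over the 3 probe pairs compared, of which the remaining pair was that of the Slc16a6 probes. Because the Bdh1 pairs were picked for their unequal differences, their p-values are no independent support. Which of the Bdh1 probes follows the amount of Bdh1 transcript cannot be told from the arrays. Whether strain variants lie under any of these probes was not tested.

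**Figure D2:**
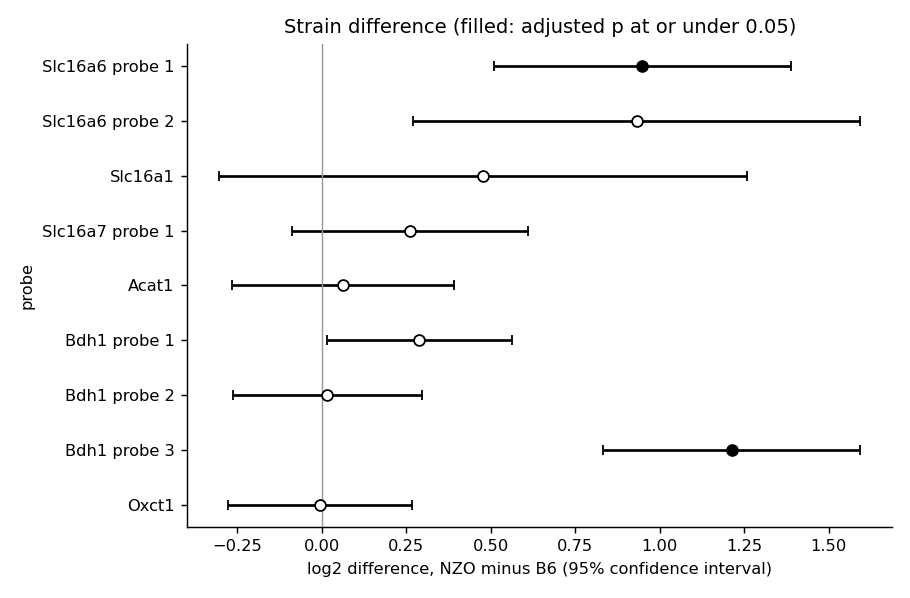
Log2 difference, NZO minus B6 (x axis), for each tested probe of the 6 genes (y axis), from the limma fit over 27643 probes. Bars are 95% confidence intervals, and filled points have an adjusted p of at most 0.05. The brighter Slc16a6 probe (0.95) and the third Bdh1 probe (1.21) are filled, and the dimmer Slc16a6 probe (0.93) is open with a wider interval.

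The other transporters of the 6 genes were not called. Slc16a1 (NM_009196, mm9 chr3:104462276-104462335) had levels of −1.06, −2.23, −2.23 and −1.70 in NZO mice 007, 003, 009 and 011 and −1.97, −2.63, −2.84 and −1.69 in B6 mice 011, 010, 015 and 009. The strains overlapped, with a spread of more than 1 log2 unit in each. NZO minus B6 was 0.48, from −0.30 to 1.26 (limma adjusted p = 0.407), and with scan day as a term it was 0.71 and called (limma adjusted p = 0.024). It was smaller with normexp (0.27), in the deposited table (0.15), without NZO mouse 007 (0.23) and without B6 mouse 015 (0.29), and −0.13 with the mouse number as a replicate block. That block takes the strain difference only from mice 009 and 011 of each strain, the numbers that both strains share. Slc16a7 (NM_011391, mm9 chr10:124665183-124665242, minus strand) ranged from −1.30 to −0.83 in NZO and from −1.42 to −0.92 in B6, a log2 difference of 0.26, from −0.09 to 0.61 (limma adjusted p = 0.312). It was 0.084 in the deposited table and 0.51 with the replicate block, and not called in either. The other Slc16a7 probe, designed on the Ensembl transcript ENSMUST00000063318 (mm9 chr10:124663576-124663635), was not well above background on any array and has no fold change.

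Oxct1 (NM_024188, mm9 chr15:4105196-4105255) was well above background on all 8 arrays. Its level ran from −0.05 to 0.26 in NZO and from −0.02 to 0.29 in B6. NZO minus B6 was −0.01 with a 95% confidence interval of −0.28 to 0.27 (limma adjusted p = 0.982), and it was −0.22 in the deposited table and −0.25 with the mouse number as a replicate block, where it was not called either.

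Over the 9 tested probes of the 6 genes, 2 were called higher, 0 lower and 7 were not called, and the median log2 difference was 0.29. Over the whole array 1888 of 27643 probes (6.83%) were called higher and 2053 (7.43%) lower, and 991 and 3357 in the deposited table. The strains did not overlap at 3 of the 9 probes, against 22.0% of all tested probes. The methods name a p of at most 0.05 and a log2 difference of at least 0.7 in either direction. With these thresholds applied here to unadjusted limma p-values, both Slc16a6 probes and the third Bdh1 probe passed, 3 of 9 against 12.2% of all tested probes. The study had used these thresholds in choosing Slc16a6, so the passing of its probes is not independent evidence. With so few probes, these shares describe the 6 genes and carry no test.

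Slc16a6 was next set beside the other genes within each array, which removes a scale factor shared by an array. The brighter Slc16a6 probe minus the brightest probe of the other gene was higher in NZO for the 5 genes reported, by 0.89 log2 units for Acat1, 0.66 for Bdh1, 0.95 for Oxct1, 0.47 for Slc16a1 and 0.69 for Slc16a7. Against Bdh1, the values were −2.84, −3.87, −2.98 and −2.77 in NZO mice 007, 003, 009 and 011 and −3.57, −4.13, −3.72 and −3.68 in B6 mice 011, 010, 015 and 009. NZO mouse 003 fell among the B6 mice, and the other 3 NZO mice lay above them. The Bdh1 value depended on the probe: it was 0.43 with the mean over the probes of each gene (exact permutation adjusted p = 0.267), and with the third Bdh1 probe in place of the brightest, chosen after the values were seen, it turned to −0.27 (exact permutation adjusted p = 0.543). Against Oxct1 the NZO values (2.56 to 3.49) all lay above the B6 values (1.97 to 2.43), with an exact two-sided permutation p of 0.0286, the smallest possible for 4 against 4.

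None of these 5 passed after adjustment over the 7 such comparisons made. The exact permutation p was 0.0857 for Acat1, 0.114 for Bdh1, 0.286 for Slc16a1 and 0.0857 for Slc16a7, and the adjusted p was 0.133 for each gene but Slc16a1, where it was 0.286. So a rise of Slc16a6 relative to Acat1 or Bdh1 was not established with all 8 mice. Without NZO mouse 003 the differences were 1.12 for Acat1, 0.91 for Bdh1, 1.16 for Oxct1 and 0.89 for Slc16a7, and each then had an exact permutation adjusted p of 0.0333. NZO mouse 003 was the one within the B6 range for Acat1, Bdh1 and Slc16a7, so these lower p-values are no independent support for a rise. For Slc16a1 the difference without that mouse was 0.49 and did not pass (exact permutation adjusted p = 0.286). Within the slide that held both strains the 5 differences lay between 0.05 and 0.36. They lay between 0.34 and 0.97 on the first scan day and between 0.22 and 1.16 on the second, where 007 was the only NZO mouse.

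**Figure D3:**
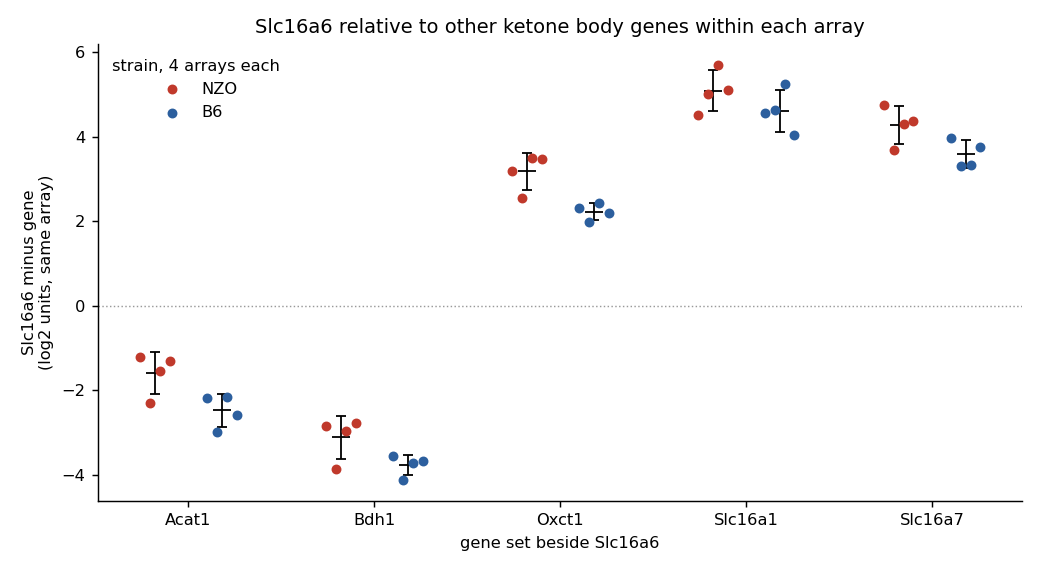
Log2 level of the brighter Slc16a6 probe minus that of the brightest probe of each gene on the same array (y axis, log2 units; x axis, gene), 1 point per array, red for NZO and blue for B6, with bars for mean ± SD over 4 arrays. NZO mouse 003 lies within the B6 range in 4 of the 5 columns, and only the Oxct1 column has no overlap.

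Genes around the pathway were read at their brightest probe, where 1069 of 14307 genes (7.47%) were called higher and 1169 (8.17%) lower. In the list of ketone body use, Aacs was called and Oxct1, Bdh1 and Acat1 were not, while the probes of Oxct2a and Oxct2b did not pass the filter. Aacs, which activates acetoacetate in the cytosol for lipid synthesis, had levels of 3.34, 3.50, 3.71 and 3.52 in NZO mice 007, 003, 009 and 011 and 2.93, 1.91, 2.12 and 2.96 in B6 mice 011, 010, 015 and 009. The strains did not overlap. Its log2 difference was 1.04 with a standard error of 0.25 (limma adjusted p = 0.0281). The call was lost in 5 of 8 fits without 1 mouse, those without NZO mouse 003, 009 or 011 or B6 mouse 010 or 015 (limma adjusted p up to 0.073), and also in the deposited table, at 0.75 (limma adjusted p = 0.0829), without the filter (0.0742) and with the methods' t-test (0.143).

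Of 4 enzymes that resemble the ketogenic ones but work elsewhere in the cell, 3 were tested, of which 1 was called higher, 1 lower and 1 was not called. Bdh2, a cytosolic dehydrogenase named for its likeness to Bdh1, had levels of 1.40, 1.65, 1.25 and 1.64 in NZO mice 007, 003, 009 and 011 and 3.61, 3.63, 3.82 and 3.78 in B6 mice 011, 010, 015 and 009. The strains were far apart. On the log2 scale NZO minus B6 was −2.23 with a standard error of 0.12 (limma adjusted p = 1.24e-05). Acat2, the cytosolic thiolase at the start of cholesterol synthesis, was higher by 0.78 with a standard error of 0.12 (limma adjusted p = 0.00287), from 6.58 to 6.86 in NZO and from 5.77 to 6.08 in B6. Hmgcs1, a cytosolic enzyme of sterol synthesis, differed by −0.30 and was not called (limma adjusted p = 0.505). Hmgcll1 was not well above background on any array.

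Of 11 other SLC16 genes, 8 were tested, 0 were called higher, 2 lower and 6 were not called, with a median log2 difference of 0.21. Slc16a10, an aromatic amino acid transporter, had levels of 0.61, 0.69, 0.52 and 1.16 in NZO mice 007, 003, 009 and 011 and 1.58, 1.66, 1.66 and 1.72 in B6 mice 011, 010, 015 and 009. NZO mouse 011 was nearest to B6, and the strains did not overlap. The log2 difference was −0.91 with a standard error of 0.15 (limma adjusted p = 0.00422), and Slc16a9 (MCT9) fell by 0.57 on the log2 scale (limma adjusted p = 0.0107), a call lost with normexp, where the difference was −0.25 (limma adjusted p = 0.0533). With the methods' t-test the Slc16a10 call was lost (adjusted p = 0.0638 over all probes). Bsg, the chaperone that brings Slc16a1 to the plasma membrane, differed by 0.18 and was not called (limma adjusted p = 0.379). Emb, the partner of Slc16a7, was well above background on 2 of 4 NZO arrays and all 4 B6 arrays and was not called, and the sodium-coupled carriers Slc5a8 and Slc5a12 were not well above background on any array.

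Among 6 genes that control ketogenesis, 1 was called higher and 5 were not called. Fgf21, the hepatic hormone of fasting, was named after its values were seen, because its strains overlapped. Its level was 0.65, 0.20, 0.84 and −1.71 in NZO mice 007, 003, 009 and 011 and −1.33, −2.08, −3.53 and −2.88 in B6 mice 011, 010, 015 and 009. NZO mouse 011 lay among the B6 mice. Its log2 difference was 2.45 with a standard error of 0.65 (limma adjusted p = 0.0402), and the call was lost in 6 of 8 fits without 1 mouse, those without NZO mouse 007, 003 or 009 or B6 mouse 010, 015 or 009 (limma adjusted p up to 0.103). It was also lost without the filter (0.095) and with the methods' t-test (0.116), and the difference was 1.35 with normexp and 1.59 in the deposited table, both called. Ppara, the nuclear receptor of the hepatic fasting response, differed by 0.07 (limma adjusted p = 0.832), and Ppargc1a by −0.35 (limma adjusted p = 0.239).

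Of 11 genes of mitochondrial fatty acid oxidation, 1 was called higher and 10 were not called, with a median log2 difference of 0.10. Hadha, the alpha subunit of the trifunctional protein, was higher by 0.43 with a standard error of 0.11 (limma adjusted p = 0.0315). Its levels were 3.03 to 3.39 in NZO and 2.64 to 2.82 in B6. The call was lost in 6 of 8 fits without 1 mouse, those without NZO mouse 003 or 009 or any B6 mouse (limma adjusted p up to 0.0945). It was also lost in the deposited table, at 0.25 (limma adjusted p = 0.166), without the filter (0.112), with scan day as a term (0.0519) and with the methods' t-test (0.0635). Cpt1a, the gatekeeper of fatty acid entry, differed by 0.21 (limma adjusted p = 0.465). The receptors Hcar2 and Ffar3 were not called. With slide as a fixed term, where NZO mouse 003 and B6 mice 010 and 015 alone carry the strain difference, the calls of Acat2, Slc16a9, Slc16a10, Fgf21 and Hadha were lost. Those of Bdh2 and Aacs were kept. The replicate block, carried by mice 009 and 011 alone, ended all of these calls.

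**Figure D4:**
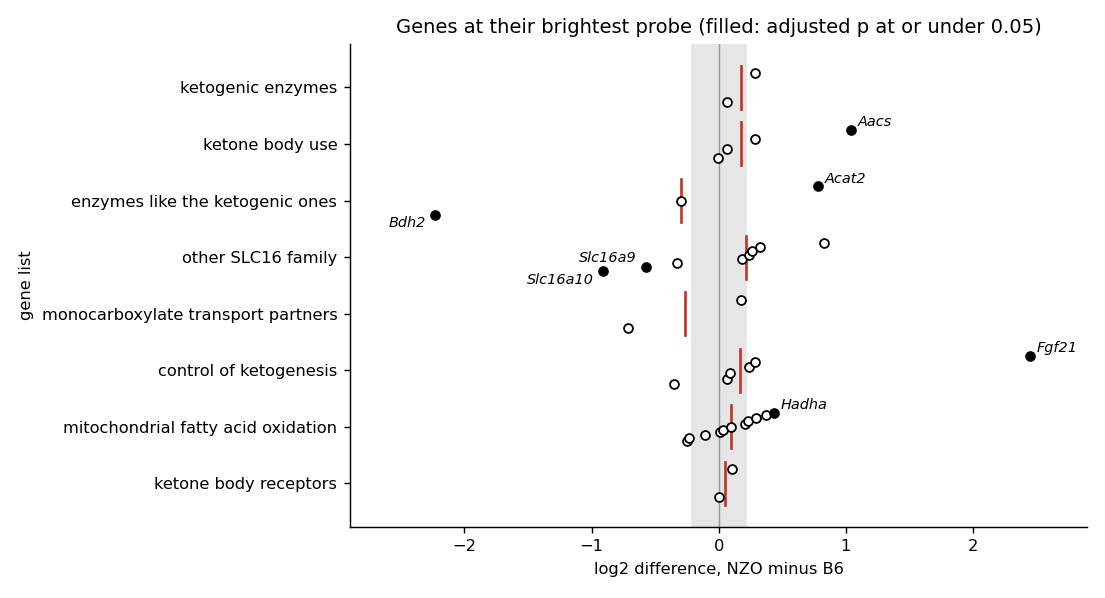
Log2 difference, NZO minus B6 (x axis), of each tested gene at its brightest probe, by gene list (y axis). Filled, named points have a limma adjusted p of at most 0.05, red bars are list medians, and the grey band holds the middle of all 14307 genes, from −0.21 to 0.21. Neither Acat1 nor Bdh1 is filled, and the called genes of the other lists run from Bdh2 (−2.23) to Fgf21 (2.45).

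By Pearson correlation over the 8 arrays, the 5 genes most like the brighter Slc16a6 probe among 13269 genes well above background on every array were St6galnac2 (r = 0.98), Trmt13 (r = 0.98), Gm9725 (r = 0.97), Ppan (r = 0.97) and Srebf2 (r = 0.96). The arrays share a strain split, which enters each r. With strain means removed, r was 0.93, 0.93, 0.97, 0.84 and 0.80 in the same order. The 5 genes were picked for the highest r on these same arrays, so high values are partly fixed by that choice. Each of them, like Slc16a6, was lowest among the NZO mice in mouse 003. St6galnac2 is a sialyltransferase, Trmt13 a tRNA methyltransferase, Ppan a factor of ribosome assembly and Srebf2 a regulator of sterol synthesis. Among the other ketone body probes r with Slc16a6 was 0.88 for its own dimmer probe. For the Bdh1 probes, in the order described above, r was 0.47, −0.29 and 0.72. It was 0.58 for Slc16a1, 0.44 for Slc16a7, −0.05 for Oxct1 and −0.13 for Acat1. The strain split enters these values too, and r with strain means removed was not computed for these probes. NZO mouse 003, the lowest NZO mouse at the brighter Slc16a6 probe (2.79), was the highest NZO mouse at every Bdh1 probe (6.66, 5.42 and 3.56). So these r do not show that Bdh1 rose with Slc16a6 between mice of a strain.

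All 5 hepatocyte markers, Alb, Ttr, Apoa1, Cps1 and Tat, were well above background on all 8 arrays, as the liver label implies, and 0 of 5 were called. Their summed linear level, in multiples of the array's 75th percentile, was 3868, 3921, 3856 and 3793 in NZO mice 007, 003, 009 and 011 and 3201, 3765, 3646 and 3000.2 in B6 mice 011, 010, 015 and 009. All NZO sums lay above all B6 sums, and the sum mostly follows Alb, which differed by 0.27 and was not called. The list's median log2 difference was 0.01, with Ttr at 0.15, Apoa1 at 0.01, Cps1 at −0.01 and Tat at −0.31, none of them called. The strains did not overlap at Alb or Ttr. In bulk liver, fewer cells of a type and less RNA per cell cannot be told apart.

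Markers of other cells were read in the same way. Of 42 marker genes of these cells and of hepatocytes, 32 were tested, 4 were called higher, 4 lower and 24 were not called, against 7.47% higher and 8.17% lower over all genes at their brightest probe. Among those called lower, Itgax passed the filter only through B6, so its call is no support for a difference. Red blood cell markers, of which 2 of 4 were called higher, had a sum of 365, 318, 470 and 293 in NZO mice 007, 003, 009 and 011 and 208, 165, 155 and 196 in B6 mice 011, 010, 015 and 009. Hba-a1, the brightest of them and a near copy of another alpha-globin gene, was higher by 1.01 (limma adjusted p = 0.0181), a call lost without B6 mouse 010 or 015 (limma adjusted p up to 0.055), with quantile normalization (0.053), in the deposited table (0.0578), without the filter (0.0512) and with the methods' t-test (0.0763). Alas2 was higher by 0.90 (limma adjusted p = 0.0023). Their part in the Slc16a6 and Slc16a1 values was not tested.

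Of the endothelial markers Stab2 was higher by 0.49 (limma adjusted p = 0.00887) and Lyve1 lower by a log2 difference of −0.62 (limma adjusted p = 0.0247), and the list's sum, led by Stab2, was 47.1 to 63.3 in NZO and 39.7 to 42.4 in B6. Of the leukocyte markers Cd68 (−0.42, limma adjusted p = 0.0448) and Itgax (limma adjusted p = 0.0358) were called lower and 3 of 5 were not called, among them Lyz2 (0.41, limma adjusted p = 0.109) and Cd3e (0.33, limma adjusted p = 0.575), which differed the other way. Itgax was well above background on 2 of 4 NZO and 4 of 4 B6 arrays and so was tested only through B6. Because B6 is the strain where Itgax was high, its p-value is no support for a difference. Its measured difference was −2.04, and −0.86 in the deposited table, and it was not tested where all 8 arrays had to be above background. That list's sum, led by Cd3e, was 10.8 to 18.8 in NZO and 10.8 to 13.4 in B6. Of the 8 fits without 1 mouse, the Lyve1 call was lost in 5 (NZO mouse 007, 009 or 011, B6 mouse 010 or 009; limma adjusted p up to 0.0728), the Cd68 call in all but the one without NZO mouse 007 (up to 0.11), and the Itgax call in 6 (NZO mouse 003 or 009, any B6 mouse; up to 0.0911). The Stab2 call was lost in the deposited table, at 0.29 (limma adjusted p = 0.13), and the Itgax call with normexp, at −0.37 (limma adjusted p = 0.0693). Lyve1 differed by a smaller −0.38 with normexp, still called (limma adjusted p = 0.0407), and by −0.30 with slide as a fixed term (limma adjusted p = 0.478). Without the filter and with the methods' t-test the calls of Cd68 (adjusted p = 0.144 and 0.0748), Itgax (0.0857 and 0.16) and Lyve1 (0.0775 and 0.0619) were lost. With scan day as a term those of Cd68 (limma adjusted p = 0.0697) and Itgax (0.0548) were lost, and with the array median that of Cd68 (0.0515). All 8 called markers lost their calls with slide as a fixed term and with the replicate block. Both of these fits draw the strain difference from few of the mice. Sox9, a biliary marker, differed by −1.46 (limma adjusted p = 0.00893), or by −0.58 with normexp and −1.06 in the deposited table, both called, and that list, brightest at Krt19 over all 8 arrays but at Sox9 in the B6 mean, summed to 0.47 to 0.77 in NZO and 1.14 to 1.52 in B6.

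Of the adipocyte markers Car3, the brightest and also a hepatocyte transcript, was higher by 0.47 (limma adjusted p = 0.0131), a call lost with quantile normalization (0.37, limma adjusted p = 0.0838), in the deposited table (0.21, limma adjusted p = 0.393) and without the filter (limma adjusted p = 0.0592). Adipoq, Plin1 and Lep were not well above background on any array. That list summed to 565 to 644 in NZO and 409 to 481 in B6, nearly all of it Car3. Fabp4, an adipocyte and macrophage gene, differed by −0.30 (limma adjusted p = 0.245) and Cidec by 0.42 (limma adjusted p = 0.243). No stellate cell marker was called; the sum, led by Dcn, was 42.0 to 52.5 in NZO and 56.9 to 65.6 in B6. Of the exocrine pancreas markers 4 of 6 were not well above background on any array and the other two were not called, with sums of 1.36 to 2.29 in NZO and 1.29 to 1.75 in B6, led by Ctrb1.

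Skeletal muscle genes stood out in single livers. The sum of Ckm, Acta1, Myh4 and Tnnt3 was 16.4, 0.19, 0.22 and 0.39 in NZO mice 007, 003, 009 and 011 and 0.99, 5.49, 1.39 and 0.35 in B6 mice 011, 010, 015 and 009, with Myh4 the brightest. NZO mouse 007 was the highest and no muscle gene was called. Without NZO mouse 007 the brighter Slc16a6 probe differed by 0.89 and the third Bdh1 probe by 1.33, and both remained called. Slc16a1, also highest in that mouse, differed by 0.23 without it, against 0.48 with it, and was called in neither.

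**Figure D5:**
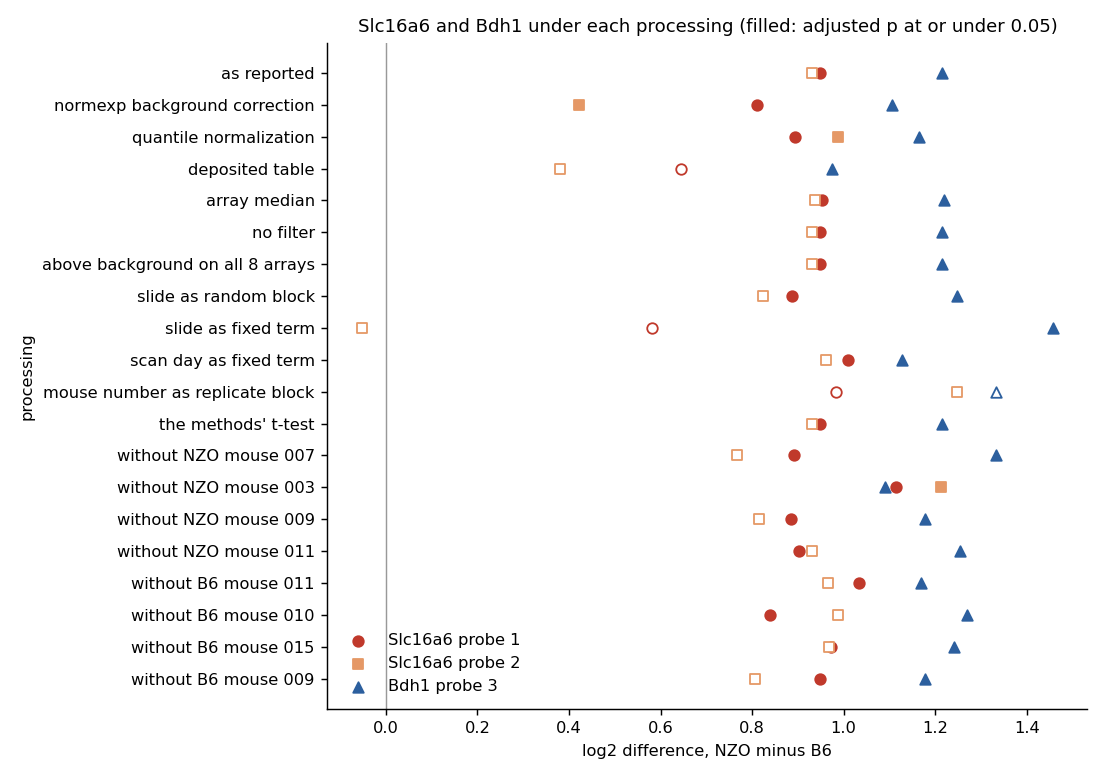
Log2 difference, NZO minus B6 (x axis), at both Slc16a6 probes and at the third Bdh1 probe under each processing (y axis), filled where the adjusted p was at most 0.05. The brighter Slc16a6 probe runs from 0.58 with slide as a fixed term to 1.11 without NZO mouse 003, the third Bdh1 probe from 0.97 to 1.46, and the dimmer Slc16a6 probe reaches −0.05 with slide as a fixed term.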

How the data were processed

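Total RNA from 8 livers was labelled with Cy3 and hybridised to 1-colour Agilent arrays. The deposited scanner files hold intensity values that the authors' Agilent Feature Extraction software (9.1 in the submitters' processing notes, 11.0.1.1 in the file headers) had background-corrected. The deposited table holds the raw median intensity of each spot, and all 59305 spots per array were equal to the scanner value within 0.01. Here, spots flagged as outliers (96 to 137 on an array) were dropped, spots of a probe were averaged, log2 processed signal minus each array's 75th percentile was taken, and probes were fitted with limma 3.58.1 (R 4.3.3), with no covariate. Probe coordinates are those of the array design, on mm9. Gene symbols for lists came from RefSeq (GRCm38.p6), which matched 27656 probes by accession, 80 by another accession, 3350 by symbol and 313 by synonym, and left 24282 unnamed. Within-array differences were tested by exact two-sided permutation over the 70 assignments of 4 and 4 mice, with adjustment over 7 comparisons, of which 5 are reported here. The number of arrays limits the precision.

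The text names every probe of the 6 genes, and from each other list up to 4 called genes whose strains did not overlap; called cell markers are also named. The members and lists were chosen with earlier results of these data known. Alternatives were normexp correction (offset 50), quantile normalization, the deposited table, the array median, no filter, a filter on all 8 arrays, slide and scan day terms, a replicate block on mouse number, the methods' t-test, and leaving out each mouse. The fitting was checked on simulated data.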

Additional observations from a re-analysis of the deposited data

Results flagged for a closer look

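In groups of 4 mice, a mouse far from the others relative to the group's range was marked in 5 of 68 groups, and chance marks about 1 in 20. At the brighter Slc16a6 probe NZO mouse 003 was at 2.79, below the other NZO mice at 3.42 to 3.48. At the dimmer Slc16a6 probe B6 mouse 009 was at −2.91, below the other B6 mice at −2.43 to −2.36. Gm9725, among the genes most like Slc16a6, was at −2.67 in NZO mouse 003 against −2.09 to −2.06 in the others. Itgax was at −1.18 in B6 mouse 015 against −1.94 to −1.92, and Cd68 at 1.79 in NZO mouse 007 against 1.42 to 1.47.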

How the results depend on the processing

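The brighter Slc16a6 probe stayed above 0 in all 11 alternative settings and all 8 fits without 1 mouse (0.84 to 1.11, each called). Its call was lost in the deposited table (0.64), with slide as a fixed term (0.58) and with the mouse number as a replicate block (0.98, limma adjusted p = 0.104). The slide term takes the strain difference from NZO mouse 003 and B6 mice 010 and 015 alone. The replicate block takes it from mice 009 and 011 alone, so calls lost in either fit also reflect fewer mice. Mouse numbers 009 and 011 occur in both strains, but deviations from the strain means correlated at −0.26 and −0.004, so they were not taken as pairs. The replicate block left 72 probes higher and 134 lower over the array and 0 of the 6 genes' probes called; the third Bdh1 probe was at 1.33 (limma adjusted p = 0.0725) and Slc16a1 turned to −0.13. Slide as a fixed term left 504 higher and 984 lower, with 1 probe of the 6 genes, and turned the dimmer Slc16a6 probe to −0.052 and Oxct1 to 0.22. The deposited table gave 991 higher and 3357 lower, with 1 probe of the 6 genes, and turned Acat1 (−0.22) and the second Bdh1 probe (−0.17). Without the filter the dim Slc16a7 probe was called lower, 1 of the 6 genes' probes, and the methods' t-test called 1192 probes lower. At the methods' thresholds that t-test gave 1296 higher and 1603 lower, and limma 1436 and 1950. Other values that changed sign were near 0. They were Acat1 with normexp (−0.036) and quantile (−0.038), the second Bdh1 probe with normexp (−0.011), quantile (−0.089), scan day (−0.010) and the replicate block (−0.025), and Oxct1 with normexp (0.027), quantile (0.0047), slide as a random block (0.022) and scan day (0.046). Without 1 mouse Acat1 ranged from −0.022 to 0.13, the second Bdh1 probe from −0.074 to 0.087 and Oxct1 from −0.057 to 0.053. Slc16a6 minus a gene ranged without 1 mouse from 0.71 to 1.12 for Acat1, 0.54 to 0.91 for Bdh1, 0.85 to 1.16 for Oxct1, 0.53 to 0.89 for Slc16a7 and 0.27 to 0.68 for Slc16a1, where it was lowest without NZO mouse 009 (0.27) and B6 mouse 009 (0.27). With the third Bdh1 probe, an alternative chosen after the data were seen, Slc16a6 minus Bdh1 turned to −0.27. The cause of these changes was not tested.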

Other observations

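A pair of probes named for RIKEN clones map to Slc16a7 as older names of that gene and were not taken by its gene name. They lie further along the minus strand of mm9 chromosome 10. At D630004K10Rik (chr10:124656357-124656416) the log2 level was −1.08 to −0.77 in NZO and −0.64 to −0.10 in B6, with no overlap and a log2 difference of −0.45 (limma adjusted p = 0.0768). The NM_011391 probe of Slc16a7 differed by 0.26, with the opposite sign, and neither was called. At 9030411M13Rik (chr10:124659139-124659198) the signal was well above background on 3 of 4 B6 arrays and 0 of 4 NZO arrays.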
